A study of Homo sapiens and Mus musculus with 16 samples.

Results

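The genes described here are 10 targets of NRF2 that were chosen by name from the 22314 genes of the mRNA table. They are HMOX1, FTH1 and FTL for heme and iron, NQO1 for quinones, GCLC and GCLM for glutathione synthesis, and TXN, TXNRD1, PRDX1 and SRXN1 for the thioredoxin and peroxiredoxin cycle. Their levels address whether an extract of the medicinal fungus Antrodia cinnamomea raised the oxidative stress response of the cells. mRNA was sequenced from SK-HEP-1, a human cell line labelled as liver, after 2 or 4 h with DMSO (2U and 4U, untreated) or with 0.5 mg/ml of the fruiting body ethanol extract AcFBE (2T and 4T, treated). All 4 cultures were unmodified cells of this line in the same serum-containing medium. Each condition had 1 library, so no difference below has a replicate check or a p-value, and the 2 h and 4 h libraries are different conditions rather than replicates.

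NRF2, encoded by NFE2L2, is a transcription factor that KEAP1 holds in the cytoplasm and hands to a ubiquitin ligase for degradation. Oxidants and electrophiles modify KEAP1, after which NRF2 enters the nucleus, pairs with a small MAF protein and binds antioxidant response elements near its targets. Several targets, HMOX1 among them, are also controlled by the repressor BACH1 and by other stress signals, so the level of a single target does not measure NRF2.

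The table gives FPKM, which scales reads to gene length and library size. Amplification of the cDNA and reads shared between genes (below) limit how far levels of different genes can be compared. A gene had a log2 ratio here when its mean over the 4 libraries was at least 1 FPKM and it was above 0 in both libraries compared. It is called higher or lower from a 2-fold difference on. Of the 10 genes, 8 had ratios in every comparison. NQO1 was listed at 0 in all 4 libraries and GCLC stayed under the minimum.

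The promoter sequences of RefSeq (GRCh38.p14), from 250 bases before to 50 bases after each start, held entries for 7 of the 10 genes, with 2 starts for TXNRD1. They were searched on both strands for TGACNNNGC, the core letters of the antioxidant response element. GCLM and both TXNRD1 starts held it, while the entries of FTL, NQO1, GCLC, TXN and SRXN1 did not. The same letters stood in 4687 of all 35116 promoters (13.3%). The stretches are shown because GCLM and TXNRD1, the genes that share these letters, lay on opposite sides of the untreated libraries below. Capitals mark the matched letters, which read TGACNNNGC on the strand shown or on the other strand. Each stretch is given 5′ to 3′ on the strand of its gene.
GCLM, chr1:93909431-93909489, minus strand: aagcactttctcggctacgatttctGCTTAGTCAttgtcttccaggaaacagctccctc
TXNRD1, chr12:104215655-104215713, plus strand: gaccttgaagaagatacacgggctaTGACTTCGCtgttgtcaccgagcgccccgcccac
TXNRD1, chr12:104286905-104286963, plus strand: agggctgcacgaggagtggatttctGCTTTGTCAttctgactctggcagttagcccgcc
The window of the first TXNRD1 stretch held a further match at base -8 on the other strand, which reaches past the start and is not shown. A match describes these letters only. The absence of a match says nothing about elements outside these windows.

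The libraries differed in ways that touch these genes. Genes above 0 numbered 8454 to 10691 per library. At 4 h these counts equal the gene numbers printed in the paper, but at 2 h they do not. Here the untreated 2 h library held the most genes (10691) and its treated partner the fewest (8454), whereas the paper counted more genes after treatment. The 2 h values used here may thus not be those behind the paper's counts, which was not tested. Every comparison with a 2 h library rests on them. The lowest value above 0 was 0.0001 FPKM in both 2 h libraries and 0.2 FPKM in both 4 h libraries, so that a gene under 0.2 FPKM is listed at 0 at 4 h but need not be at 2 h. Among 635 genes with a mean of at least 100 FPKM, 2U held 10 at least 5-fold under each of the other libraries, FTL among them, and a further 15 listed at 0. The 2T library held 25 of these genes at 0 and both 4 h libraries held none. Of 10 hepatocyte markers, 8 were listed at 0 throughout, ALB, APOA1 and HNF4A among them, which can be a failed estimate as well as a low level. SERPINA1 was at 8.59 to 18.7 FPKM, and all 6 endothelial markers were listed at 0. The mesenchymal marker VIM ranged from 6465 to 13625 FPKM.

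**Figure D1:**
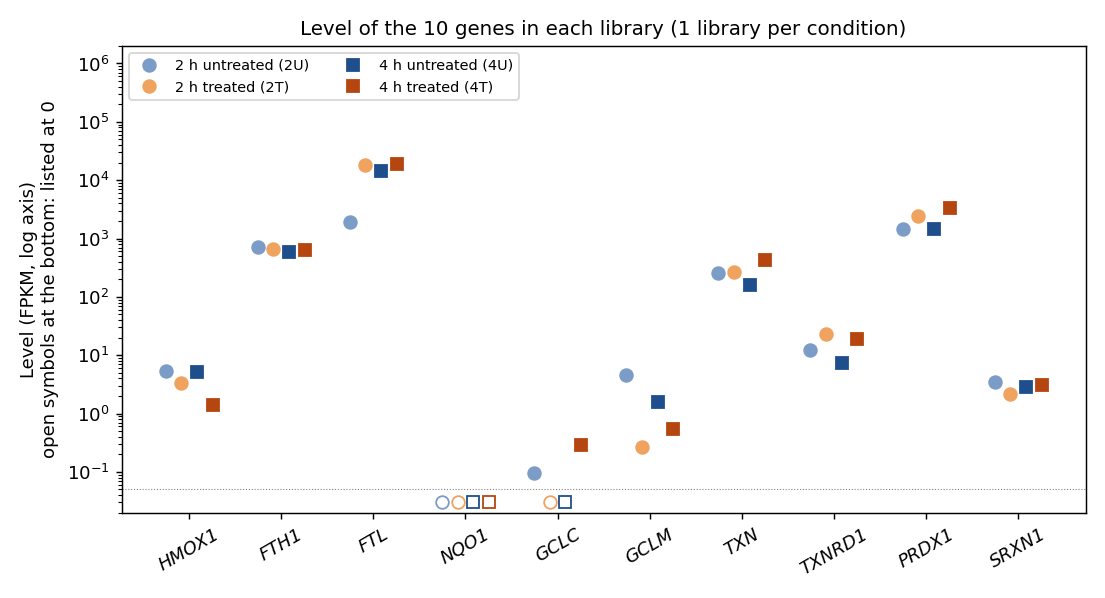
Level of the 10 genes in FPKM on a log axis, with 1 symbol for each library (circles 2 h, squares 4 h, blue untreated, orange treated) and open symbols at the bottom for values listed at 0. FTL, PRDX1, FTH1 and TXN lie far above the other members, and NQO1 is listed at 0 in all 4 libraries.

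The 10 genes spanned most of the range of the table. FTL, the light chain of the iron-storing protein ferritin, stood at 18098 FPKM in 2T, 14208 in 4U and 19004 in 4T, and ranked 5, 9 and 5 among all genes. PRDX1, a peroxiredoxin that reduces hydrogen peroxide, ranked between 54 and 99, FTH1 between 167 and 180, and TXN between 229 and 476. TXNRD1 ranked between 1379 and 2626. HMOX1, SRXN1 and GCLM lay lowest among the genes with a ratio, at ranks from 2724 down to 6909. With 1 library per condition the order of neighbours such as HMOX1 and SRXN1 has no spread to be read against.

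Both treated levels of HMOX1 lay under both untreated levels, as in 33.4% of 5445 genes, and only its 4 h ratio reached 2-fold. HMOX1 encodes heme oxygenase 1, which degrades heme to biliverdin, carbon monoxide and iron, and is a widely used marker of an NRF2 response. Its level was 5.42 FPKM in 2U and 3.30 in 2T, then 5.24 in 4U and 1.42 in 4T. The untreated levels were close to each other, and both treated levels lay under them. HMOX1 was 1.65-fold lower in 2T than in 2U and 3.70-fold lower in 4T than in 4U (log2 -0.72 and -1.89). The 2 h ratio stood near the lower quartile of all genes (-0.73). Between the treated libraries its log2 ratio of 4T against 2T was -1.22.

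Low values in the 2 h libraries fell on steps. Of 1253 genes with 0 to 0.3 FPKM in both, 120 had a 2U to 2T ratio of 1.08, the most frequent value. Where the authors counted whole reads, this ratio is that of what 1 read is worth in each library, so the depth of both was similar. At 4 h, where values above 0 begin at 0.2 FPKM, 31 of 372 such genes had the most frequent 4U to 4T ratio, 1.02. The paper prints mapped reads for each mRNA library, with more in 4T than in 4U by a wider gap than this ratio. The 4 h ratio is therefore not read as depth here. FPKM do not hold the counts behind a value, so no counting interval is given.

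FTL and FTH1 form ferritin together, yet their values behaved differently. FTH1, the heavy chain with the ferroxidase activity, measured 709 FPKM in 2U and 663 in 2T, then 597 in 4U and 635 in 4T. The treated and untreated values of FTH1 overlapped, with log2 ratios of -0.10 at 2 h and 0.09 at 4 h. FTL was at 1883 FPKM in 2U against the 14208 to 19004 FPKM of the other libraries. Its log2 ratio was therefore 3.26 at 2 h but 0.42 at 4 h, and 2.92 between the untreated libraries. The 2U library alone was low, by 7.54-fold against the lowest of the others. With 4U in place of 2U as the untreated library, the log2 ratio of FTL in 2T was 0.35. FTL took 0.231% of the FPKM sum in 2U, 1.68% in 4U and 2.30% in each treated library. Whether the 2U value comes from the cells or from the library was not tested.

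NQO1, which encodes a quinone reductase and is a common readout of NRF2, was listed at 0 in all 4 libraries. A listed 0 can be a failed estimate in this table. DICER1, the nuclease that makes mature miRNAs in nearly all cells, was also at 0 in all 4 libraries. No fold can be given for NQO1.

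Of the glutathione genes, both were low and only GCLM had ratios, which put it lower in treated cells. GCLC and GCLM encode the catalytic and the modifier subunit of glutamate-cysteine ligase, the rate-limiting enzyme of glutathione synthesis. GCLC was at 0.0972 FPKM in 2U and 0.291 FPKM in 4T, and was listed at 0 in 2T and 4U. GCLM measured 4.53 FPKM in 2U and 0.270 in 2T, then 1.56 in 4U and 0.546 in 4T. Both treated levels of GCLM lay under both untreated levels, by 16.8-fold at 2 h and 2.87-fold at 4 h (log2 -4.07 and -1.52). The untreated levels themselves differed by a log2 ratio of -1.53 from 2 h to 4 h, as much as treated and untreated differed at 4 h. On the log2(FPKM + 1) scale its ratios were -2.12 and -0.73.

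Of the 4 genes of the thioredoxin arm, none was 2-fold higher in treated cells at 2 h and 3 were at 4 h, where 22.6% and 16.4% of all genes were. TXNRD1, the reductase that recharges thioredoxin with NADPH, measured 12.1 FPKM in 2U and 23.2 in 2T, then 7.36 in 4U and 18.6 in 4T. Its treated levels exceeded both untreated levels, with log2 ratios of 0.94 at 2 h and 1.34 at 4 h. Its 2 h ratio lay under 2-fold, and its 4 h ratio did so with 2U as the untreated library (log2 0.63) or with the geometric mean of both untreated libraries (0.98). Among the members with a motif match, both treated levels thus exceeded both untreated levels for TXNRD1 and lay under them for GCLM.

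PRDX1 measured 1428 FPKM in 2U and 2397 in 2T, then 1444 in 4U and 3323 in 4T. The untreated levels of PRDX1 were nearly equal, and its log2 ratios were 0.75 at 2 h and 1.20 at 4 h, the latter 0.90 when scaled by the housekeeping list. TXN, thioredoxin itself, measured 251 FPKM in 2U and 265 in 2T, then 161 in 4U and 421 in 4T. Its log2 ratio was 0.08 at 2 h and 1.38 at 4 h, so that only the 4 h libraries were apart. With 2U as the untreated library its 4 h ratio was 0.74. Scaled by the housekeeping list, the 2 h ratio of TXN was -0.26 and its treated and untreated levels overlapped. SRXN1, sulfiredoxin, which repairs overoxidised peroxiredoxins, measured 3.51 FPKM in 2U and 2.19 in 2T, then 2.84 in 4U and 3.03 in 4T. Its ratios had opposite signs at 2 h and 4 h (log2 -0.68 and 0.09), and treated and untreated levels overlapped.

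**Figure D2:**
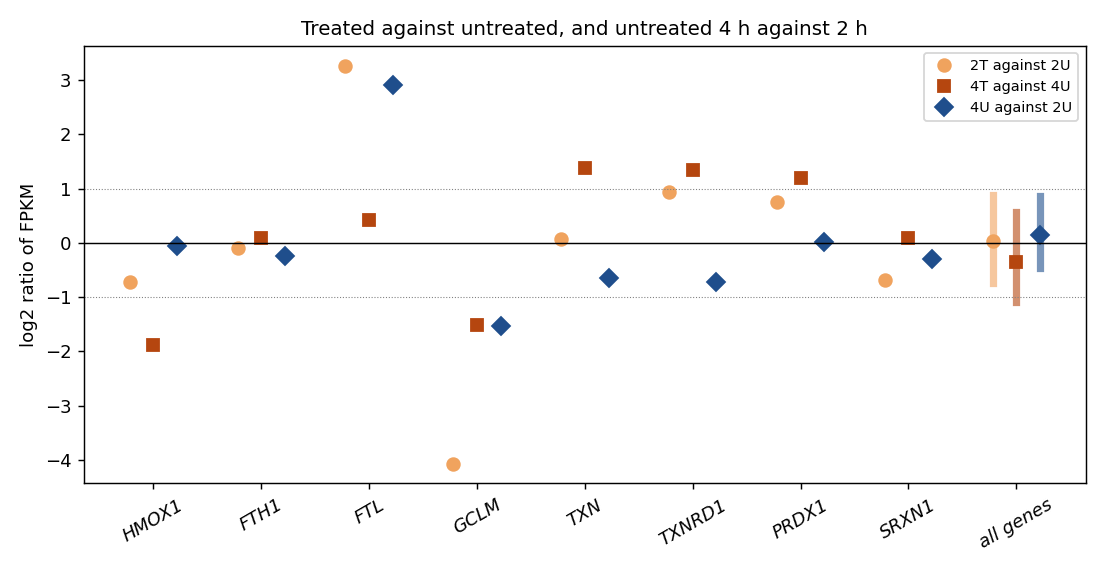
Log2 ratio of FPKM for the 8 genes with a ratio, for 2T against 2U, 4T against 4U and 4U against 2U, with dotted lines at 2-fold and, at the right, the median (symbol) and quartiles (bar) over all genes. TXNRD1 and PRDX1 lie above 0 and HMOX1 and GCLM below 0 in both treated comparisons, while the 2 h ratio of FTL is matched by its ratio between the untreated libraries.

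The counts of members were read against those of all genes. At 2 h, 1 of 8 genes was higher in treated cells (FTL) and 1 lower (GCLM), where 22.6% of all 5211 genes were higher and 18.7% lower. At 4 h, 3 of 8 were higher (TXN, TXNRD1 and PRDX1) and 2 lower (HMOX1 and GCLM), where 16.4% of 5392 genes were higher and 27.7% lower. The median log2 ratio of the 8 genes was -0.01 at 2 h and 0.26 at 4 h. Over all genes it was 0.03 (quartiles -0.73 and 0.88) and -0.35 (quartiles -1.08 and 0.58). At 4 h the median of the members thus lay above that of all genes, with HMOX1 and GCLM below its lower quartile. Without FTH1, FTL, TXN and PRDX1 the members' median at 4 h was -0.71, under that of all genes, and with a minimum of 5 FPKM it was 1.20.

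Both treated levels exceeded both untreated levels in 4 of the 8 genes (FTL, TXN, TXNRD1 and PRDX1) and lay under them in 2 (HMOX1 and GCLM). Among 5445 genes the shares were 23.7% above and 33.4% below. The libraries behind both comparisons are the same 4, and the choice of 2U touches every 2 h ratio. Scaling each library by its median ratio moved the median of all genes at 4 h from -0.35 to -0.03, with 22.8% of genes higher and 17.4% lower. Under that scaling the same 4 members lay above and the same 2 below, where the shares of all genes were 28.4% and 28.5%. Scaling by the housekeeping list moved the medians to -0.31 at 2 h and -0.65 at 4 h. It left 16.1% of genes higher and 27.5% lower at 2 h, and 10.7% and 38.4% at 4 h. FTL, TXNRD1 and PRDX1 then stayed above, and HMOX1, GCLM, FTH1 and SRXN1 lay below, where 16.7% and 43.4% of all genes did.

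The untreated libraries also differed from each other. Between 4U and 2U, 1 of the 8 genes was higher (FTL) and 1 lower (GCLM), against 21.6% and 9.89% of all 5328 genes. Between 4T and 2T, 1 was higher (GCLM, log2 1.02) and 1 lower (HMOX1), against 4.15% and 5.19% of 5206 genes. The members' median log2 ratio was -0.28 between the untreated and 0.27 between the treated libraries, where all genes had 0.15 and -0.08. In libraries made from whole cultures, fewer cells with a transcript and less of it per cell cannot be told apart. The paper's viability assay found a large part of SK-HEP-1 cells affected within 4 h at this dose. How far this bears on the treated levels was not tested.

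Reads of 35 bases, the length taken here for the mRNA libraries, cannot always be assigned to 1 of these genes. Stretches were compared here without mismatches, whereas the paper allowed mismatches in mapping, which could only raise the shares below. HMOX1 lies on GRCh37 chr22:35776354-35790207 (plus strand), and 0% of the 35-base stretches of its reference transcript occurred in transcripts of other genes. The same held for TXNRD1 (chr12:104609557-104744085, plus strand). In FTH1 (chr11:61727190-61735106, minus strand) 83.7% of the stretches occurred in 20 other genes, mostly its processed pseudogenes. In PRDX1 (chr1:45976586-46008404, minus strand) the share was 42.8%, in FTL (chr19:49468566-49470136, plus strand) 29.3% and in TXN (chr9:113006090-113018787, minus strand) 12.7%. SRXN1 (chr20:627259-633844, minus strand) shared 90.6% of its stretches with 2 unnamed genes, 1 of which overlaps it on the same strand. NQO1 (chr16:69740899-69760571, minus strand) shared 24.2%, GCLM (chr1:94350755-94375012, minus strand) 5.11% and GCLC (chr6:53362139-53481768, minus strand) 5.04%. The values of FTH1, SRXN1, PRDX1 and FTL are therefore the least certain to belong to the named gene alone. How the authors assigned such reads is not given in the sources used here.

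**Figure D3:**
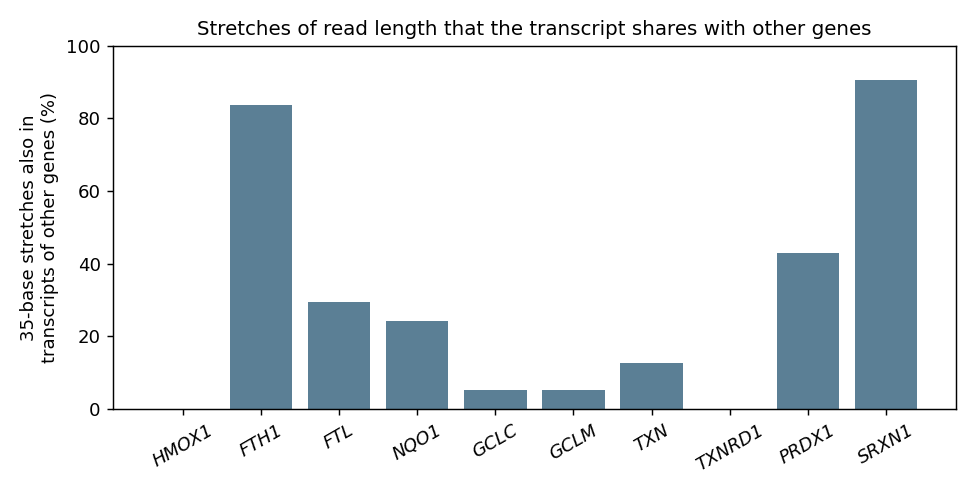
Share of the 35-base stretches of each gene's reference transcript that also occur in transcripts of other genes, in percent. HMOX1 and TXNRD1 share none, whereas FTH1 and SRXN1 share more than 80%.

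The regulators of NRF2 showed no common direction. NFE2L2 measured 0.0885 FPKM in 2U and 1.40 in 2T, then 0.508 in 4U and 1.77 in 4T, with both treated levels above both untreated ones. Its mean lay under the minimum, and its log2 ratios without a minimum were 3.99 at 2 h and 1.80 at 4 h. KEAP1 was at 5.29, 5.96, 10.0 and 6.10 FPKM in 2U, 2T, 4U and 4T, with log2 ratios of 0.17 and -0.71. RBX1, the RING subunit of the ligase that degrades NRF2, was higher at both times (log2 1.04 and 1.33). SQSTM1, which encodes the autophagy receptor p62 that binds KEAP1, measured 379 FPKM in 2U and 65.2 in 2T, then 163 in 4U and 58.4 in 4T. It was lower in treated cells at both times, by log2 ratios of -2.54 and -1.48. Of 12 regulators, 4 had a ratio, with 1 higher (RBX1) and 1 lower (SQSTM1) at each time, against 22.6% and 18.7% of all genes at 2 h and 16.4% and 27.7% at 4 h.

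BACH1 was listed at 0 in all 4 libraries. Of the small MAF genes, MAFF had log2 ratios without a minimum of -2.27 and -2.02, MAFG of 1.81 and -0.44, and MAFK was above 0 only in 2U, at 0.0806 FPKM. MAFF reached 1.83 FPKM at most and MAFG 0.848 FPKM, so these ratios are of very low levels.

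Other NRF2 targets were mostly weak. Of 29 genes 11 reached the minimum, 7 were listed at 0 throughout, and 10 had ratios. At 2 h, 2 of the 10 were higher (TKT and BLVRA) and none was lower, and at 4 h none of the 10 was higher and 1 was lower (OSGIN1). Over all genes 22.6% were higher and 18.7% lower at 2 h, and 16.4% and 27.7% at 4 h, and these shares apply to the lists that follow. Their median log2 ratio was 0.45 at 2 h and -0.57 at 4 h. TKT, transketolase of the pentose phosphate pathway, was at 17.6 FPKM in 2U and 44.8 to 61.5 FPKM in the other libraries (log2 1.35 and -0.46). TALDO1, transaldolase of the same pathway, had the lowest ratio of the list at 2 h, with 379 FPKM in 2U against 205 in 2T (log2 -0.89), and a log2 ratio of -0.94 at 4 h. BLVRA, which reduces the biliverdin that HMOX1 produces, had a log2 ratio of 1.01 at 2 h and, with 32.9 FPKM in 4T against 16.5 FPKM in 4U, lay just under 2-fold at 4 h. OSGIN1 had log2 ratios of 0.87 and -1.35.

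Other antioxidant enzymes lay on both sides of 0. Of 24 genes, 18 had ratios at each time, with 3 higher and 2 lower at 2 h, and 4 higher and 6 lower at 4 h, not far from the shares of all genes. PRDX3, the mitochondrial peroxiredoxin, measured 38.0 FPKM in 2U and 144 in 2T, then 41.4 in 4U and 142 in 4T (log2 1.92 and 1.78). SOD1, the cytosolic superoxide dismutase, was at 455, 671, 335 and 709 FPKM in the same order (log2 0.56 and 1.08). GLRX5, a mitochondrial protein of iron-sulfur cluster assembly, and MSRA, which reduces oxidised methionine, were lower at both times. Their log2 ratios were -2.84 and -1.68 for GLRX5, and -3.69 and -1.12 for MSRA.

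Of 11 genes of iron handling, 6 had a ratio and none of the 6 was 2-fold higher at either time. Lower were 2 at 2 h and 3 at 4 h, on few genes and against 18.7% and 27.7% of all genes. PCBP1 and PCBP2, which deliver iron to ferritin, were lower at both times. Their log2 ratios were -1.37 and -1.47 for PCBP1, and -1.34 and -1.54 for PCBP2. STEAP3, a ferric reductase, had log2 ratios of -0.24 and -2.14. It measured 10.1 FPKM in 4U against 2.21 to 2.61 FPKM in the other libraries, so its 4 h ratio rests on the 4U value. HMOX2, the constitutive counterpart of HMOX1, had the highest ratio of the list at 2 h, -0.02, and 0.57 at 4 h. TFRC, the transferrin receptor, had the highest ratio of the list at 4 h, 0.90.

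Of 12 genes of protein and metal stress, 1 of 11 with a ratio was higher and 4 lower at 2 h, and 2 of 12 higher and 5 lower at 4 h. HSPA1A, HSPA1B and DNAJB1 were lower by more than any member at each time. HSPA1A, an inducible chaperone of the HSP70 family, measured 2347 FPKM in 2U and 21.1 in 2T, then 473 in 4U and 11.9 in 4T (log2 -6.80 and -5.32). HSPA1B, its near-identical copy, had log2 ratios of -6.72 and -5.13, and the cochaperone DNAJB1 of -5.28 and -2.81. HSPA8, the constitutive family member, was higher at both times (log2 2.15 and 1.33), and HSP90AA1 had the highest ratio of its list at 4 h, 1.62. Housekeeping genes give a width of variation to set beside these values, for genes with means from 14.9 FPKM up. Their log2 ratios ran from -1.02 (SDHA) to 1.82 (ACTB) at 2 h and from -0.87 (GUSB) to 2.15 (YWHAZ) at 4 h. The ratios of TXNRD1, PRDX1 and TXN lay within that range at both times, whereas those of HMOX1 at 4 h and GCLM at both times lay under it and that of FTL at 2 h above it. At 4 h the upper end rests on YWHAZ. The next highest of the list was B2M at 1.13, under the 4 h ratios of TXN, TXNRD1 and PRDX1. HMOX1 and GCLM had means of only 3.84 and 1.73 FPKM, so the range does not give the variation at their level.

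**Figure D4:**
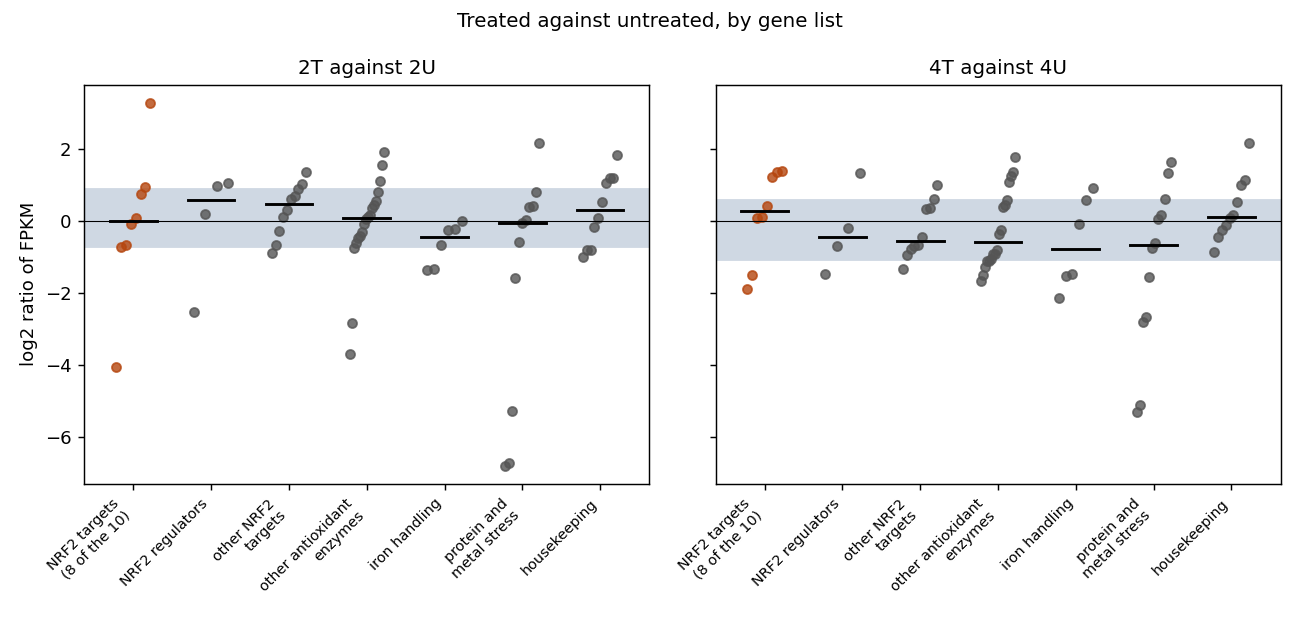
Log2 ratios of FPKM for treated against untreated at 2 h (left) and 4 h (right), 1 point per gene, by list, with black bars for medians and a grey band for the quartiles of all genes. The heat shock genes HSPA1A, HSPA1B and DNAJB1 lie lowest, and the NRF2 targets spread to both sides of 0.

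By distance over the 4 libraries on the centred log2(FPKM + 1) scale, the genes most like HMOX1 among 6423 compared were C19orf61 (distance 0.0873), HIST2H2AA3 (0.104), TMEM8A (0.128), CNN2 (0.130) and SARDH (0.134). None of these genes is a member, and with 4 libraries the likeness is a description only.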

How the data were processed

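The series holds 16 samples, of which the 4 mRNA libraries of SK-HEP-1 were used and the 12 miRNA libraries were not analysed here. Poly(A) RNA was amplified and sequenced on SOLiD 3. The paper gives a read length of 35 bases in a passage that goes on to the trimming of miRNA reads. That length was taken here for the mRNA reads, for which the paper names none separately. The authors aligned the reads to hg19 and deposited FPKM per gene. The paper's methods name Bowtie and Cufflinks, the submitters' processing notes TopHat and Cufflinks, without versions. Text annotations that trail some rows of the table were not used.

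Ratios were computed without a pseudocount in Python 3.11.15 with numpy 2.4.6 and pandas 2.3.3, and plots with matplotlib 3.10.9. The calculation of ratios was tested on simulated data. FPKM give no counts and each condition has 1 library, so no test was made. The members, lists and alternatives were chosen with earlier results of these data known. Named genes were the 10 members, the regulators NFE2L2, KEAP1, BACH1 and small MAFs, the 5 genes nearest to HMOX1, and, per list, genes at least 2-fold apart in either direction at both times and the largest rise and fall at each time. SOD1, DICER1 and some markers were added after their values were seen. Some genes of the lists are not reported here and were left out of their counts. Loci are from GENCODE v44 on GRCh37, promoters from RefSeq. Alternatives covered pseudocount, minimum, scaling, fold, shared-read genes and choice of untreated library.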

Additional observations from a re-analysis of the deposited data

Results flagged for a closer look

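Some genes had ratios of opposite sign at 2 h and 4 h, and this difference was not tested, since each time has 1 treated and 1 untreated library. Given as the log2 ratio at 4 h minus that at 2 h, it was 0.19 for FTH1 and 0.77 for SRXN1 among the members. Among the other lists it was -1.81 for TKT, -2.22 for OSGIN1, 0.59 for HMOX2, 1.16 for TFRC, -2.09 for ACTB, 2.96 for YWHAZ and -1.29 for THY1.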

How the results depend on the processing

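No member called higher or lower changed to the opposite call under any alternative run. With housekeeping scaling, ratios near 0 changed sign for TXN at 2 h (-0.26) and for FTH1 and SRXN1 at 4 h (each -0.21). Among the member values under alternatives, 108 moved by less than 1.5-fold and 14 by more, those of FTL, GCLM, TXN and TXNRD1. These counts do not measure stability. A changed minimum cannot alter a gene's own ratio, and each scaling shifted all genes alike by less than 1.5-fold. All values that moved came from the log2(FPKM + 1) scale or the choice of untreated library. Without FTH1, FTL, TXN and PRDX1, chosen for their processed pseudogenes (SRXN1, which shares more stretches with other genes, stayed in), the members' median log2 ratio was -0.70 at 2 h and -0.71 at 4 h, with 0 members higher at 2 h and 1 at 4 h (TXNRD1). A minimum of 5 FPKM, which removes HMOX1, GCLM and SRXN1, gave medians of 0.75 and 1.20 and 0 lower members at either time. A fold of 1.5 gave 3 higher and 3 lower members at 2 h, and a fold of 3 gave 0 higher and 1 lower at 4 h. The log2(FPKM + 1) scale gave 1 lower at 4 h, and scaling by the housekeeping list 3 lower at 2 h and, with PRDX1 lost, 2 higher at 4 h. Of the other NRF2 targets, 2 were higher at 2 h as reported, 5 with a fold of 1.5, 0 with a fold of 3, and 1 on the log2(FPKM + 1) scale or with housekeeping scaling. At 4 h, 0 were higher as reported, 2 with a fold of 1.5 and 1 when scaled by the median ratio or the sum of FPKM.

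Alternatives for the untreated library were chosen after the data were seen. With the geometric mean of both untreated libraries, 2 members were higher at 2 h (FTL and TXNRD1) and 3 at 4 h (FTL, TXN and PRDX1), and of the other targets 0 were higher at 2 h and 1 at 4 h. With the untreated library of the other time, 1 member was higher at 2 h (TXNRD1) and 2 at 4 h (FTL and PRDX1), and 0 of the other targets were higher at 2 h and 2 at 4 h. The log2 ratio of FTL was then 0.35 at 2 h and 3.33 at 4 h, of GCLM -2.54 and -3.05, of TXN 0.72 and 0.74, and of TXNRD1 1.66 and 0.63. Except where fewer genes entered, the cause was not tested. Counts behind the values are not in the table, so depth could not be weighed per gene.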
